A study of Macaca mulatta with 8 samples.

Results

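MATN4 and HAS3 are genes of the extracellular matrix, and their RNA was measured in the cerebral cortex of the rhesus macaque, in 2 areas. M1 is the primary motor cortex, from which voluntary movements are driven. A46, or area 46, belongs to the prefrontal association cortex. The members were chosen by identifier. A probe was taken where its RefSeq transcript belongs to MATN4 or HAS3 in rhesus, which gave 1 probe for each gene (A_01_P012024 for MATN4, designed on transcript NM_001168628, and A_01_P014749 for HAS3, designed on NM_001110777). These are 2 of 20217 probes on the array and 2 of the 835 genes that could be named. No coordinates are given, because the array was designed on rheMac2, per the file headers, and the gene names come from a table of another assembly.

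Tissue came from the left hemisphere of 4 adolescent macaques aged 2.6 to 2.7 years, which were cage-bred in groups, carried no transgene or other manipulation named in the labels and had received no experimental treatment. The forelimb part of M1 and both banks of the principal sulcus (A46) were dissected after the animals had been perfused with heparinised saline. Each area was measured on 4 single-colour (Cy3) oligonucleotide arrays, numbered 1 to 4 within the area, and the question of the study was which genes differ between a motor and a prefrontal area. The labels do not say which animal a number stands for. In dissected tissue, fewer cells of a type and less RNA per cell cannot be told apart, here and in every result below.

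Hyaluronan is a long unbranched sugar polymer that fills much of the space between brain cells. Membrane-bound hyaluronan synthases make it and pass the growing chain out of the cell, and proteoglycans of the aggrecan family bind to it with the help of link proteins. Around some neurons, mainly fast-spiking inhibitory neurons that contain parvalbumin, this material condenses into a lattice called the perineuronal net, which closes late in postnatal development and limits plasticity. HAS3 encodes one of the hyaluronan synthases of vertebrates. MATN4 encodes matrilin-4, one of a family of secreted adaptor proteins that link other matrix components. Neither gene defines the net. Of the components that do, aggrecan (ACAN), brevican (BCAN), neurocan (NCAN), versican (VCAN), the link proteins HAPLN1 to HAPLN4 and tenascin-R (TNR), none could be matched to a probe, so whether the values below belong to perineuronal nets or to matrix elsewhere was not tested.

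Each probe was printed at 2 spots on each array. On an array, 71.4% to 77.3% of the probes were well above background by the scanner software's own call at both spots, and the arrays had 75th percentiles of 1232 to 2008 scanner units. The arrays were scanned on 4 days, and A46 replicate 3 was the only array of its day. The median negative control signal was 4.90 units on M1 replicate 4 and 1.11 to 2.80 on the others. Both members were well above background at both spots of all 8 arrays, with no spot called an outlier or saturated. The MATN4 spots were 12.2 to 39.5 times their local background and the HAS3 spots 2.47 to 8.23 times, so that HAS3 was the dimmer measurement relative to background. The scanner software estimated an error of up to 11.2% of the signal for these spots. The gap between the 2 spots of an array had a median of 0.08 log2 units for either gene, against 0.10 over all tested probes, and reached 0.21 for MATN4 and 0.36 for HAS3. A level below is the mean log2 signal of the 2 spots minus the array's 75th percentile in log2 units, and differences are M1 minus A46.

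MATN4 was measured in both areas, and its level varied more between arrays of 1 area than between the areas. In A46 it stood at -1.58, -2.01, -0.67 and -1.32 in replicates 1 to 4, or 455, 339, 1166 and 709 scanner units. In M1 it stood at -1.19, -1.42, -0.50 and -1.06, or 541, 475, 1149 and 961 scanner units. Replicate 3 was the highest and replicate 2 the lowest array of either area, and the areas overlapped. The means were -1.40 ± 0.56 (SD, n = 4) in A46 and -1.04 ± 0.39 in M1. The difference of 0.35 ± 0.30 SE, 1.28-fold toward M1, did not pass in the limma fit over all 14698 tested probes (adjusted p = 0.851). Its 95% interval ran from -0.34 to 1.04, or from 0.792-fold to 2.06-fold, so that neither equal levels nor a doubling in M1 lay outside it. The exact two-sided permutation test over the 70 splits of the arrays gave p = 0.343, where the smallest possible is 0.0286.

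HAS3 leaned the other way, again by less than the spread between arrays. In A46 it stood at -4.08, -2.82, -3.80 and -3.64 in replicates 1 to 4, or 80.1, 194.9, 132.7 and 142 scanner units. In M1 it stood at -4.17, -3.40, -4.04 and -4.01, or 68.6, 120.6, 98.5 and 124.8 scanner units. Replicate 2 was the highest and replicate 1 the lowest array of either area, and the areas overlapped here too. The means were -3.59 ± 0.55 (SD, n = 4) in A46 and -3.90 ± 0.34 in M1. The difference of -0.32 ± 0.29 SE, 1.25-fold toward A46, did not pass (limma adjusted p = 0.860). Its 95% interval ran from -0.97 to 0.33, or from 0.511-fold to 1.26-fold in M1 relative to A46. The exact two-sided permutation test gave p = 0.4.

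**Figure D1:**
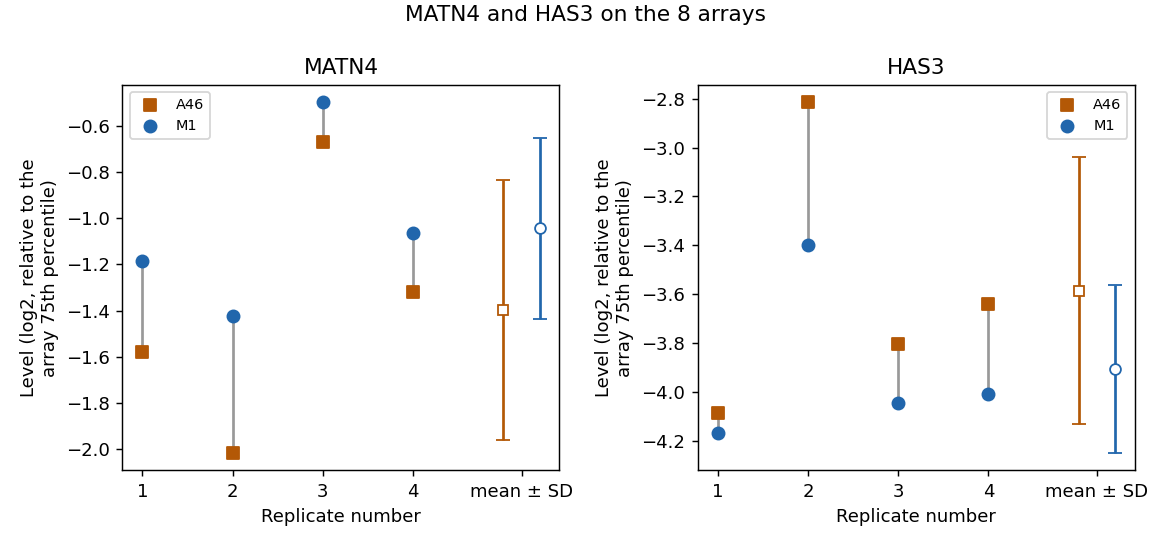
Level of MATN4 (left) and HAS3 (right) on each array (log2 signal minus the array's 75th percentile, y axis) against the replicate number. Filled points are arrays (A46 orange squares, M1 blue circles), grey lines join arrays of the same number, and open points with bars are the mean and SD over 4 arrays. For each number the M1 point lies above the A46 point for MATN4 and below it for HAS3, while the numbers differ more than the areas do.

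Most of the spread of both genes went with the replicate number. Of the sum of squares over the 8 arrays, the number held 82.0% for MATN4 and 81.3% for HAS3, the area 15.0% and 14.0%, and 3.03% and 4.67% were left. With 4 numbers but 2 areas, noise alone tends to give the number the larger share, so the shares of number and area are not like quantities. Over the tested probes the medians were 66.3% for the number and 9.33% for the area, and 24.8% of the probes had a share of the number at least as high as that of MATN4, 25.9% as high as that of HAS3. A high share of the number was thus common on these arrays. The arrays numbered 1 were the only ones of day 2 and those numbered 4 of day 3, so there number and scan day cannot be told apart. Day 1 held both arrays numbered 2 and M1 replicate 3, while A46 replicate 3 was scanned on day 4. For MATN4 the arrays numbered 3 stood at -0.67 in A46 and -0.50 in M1, each the highest of its area. The share of the spread that went with the scan day was not tested. The SD within an area was 0.49 for MATN4 and 0.46 for HAS3, against a median of 0.27, and 17.2% and 19.6% of the probes had an SD at least as large.

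**Figure D2:**
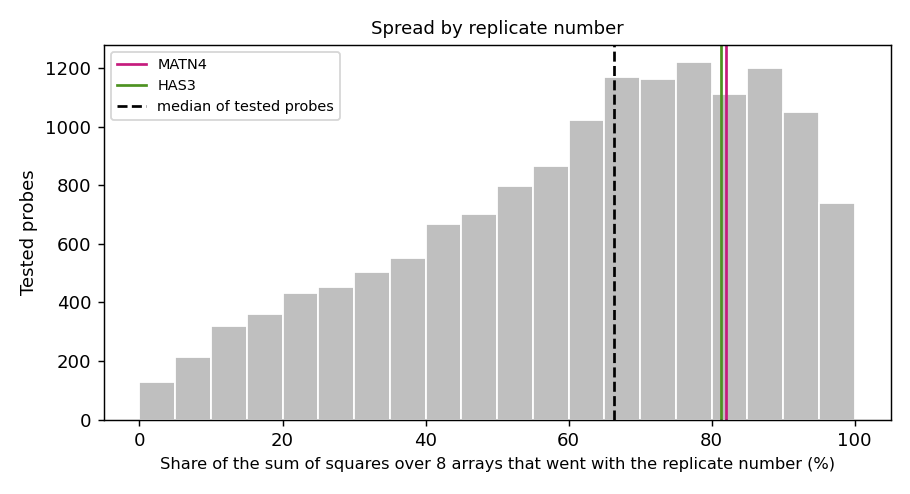
Share of the sum of squares over the 8 arrays that went with the replicate number (x axis, percent), with the number of tested probes in each bin of the share as grey bars (y axis). The lines for MATN4 (82.0%) and HAS3 (81.3%) lie above the median of the tested probes (66.3%, dashed) and within the broad upper part of the distribution.

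Taken by number, the differences between the areas had 1 sign each. MATN4 was higher in M1 by 0.39, 0.59, 0.17 and 0.26 for numbers 1 to 4. HAS3 differed by -0.08, -0.58, -0.24 and -0.37. The pair numbered 2 gave the largest difference of either gene, 1.51-fold for MATN4 and 1.50-fold for HAS3. The HAS3 difference of pair 1 was smaller than the gap of 0.36 between the 2 HAS3 spots on A46 replicate 1. Of the tested probes 16.3% were higher in M1 in 4 of 4 pairs, as MATN4 was, and 17% were lower in 4 of 4, as HAS3 was, so that 1 sign throughout was a frequent pattern. Over the 16 sign changes of 4 pairs an exact permutation test gave p = 0.125 for either gene, the smallest it can give.

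With the replicate number as a block in the limma fit, neither gene passed over all probes. MATN4 stood at 0.35 ± 0.10 blocked SE (95% interval 0.10 to 0.60, unadjusted p = 0.0134, limma adjusted p = 0.126). HAS3 stood at -0.32 ± 0.11 blocked SE (95% interval -0.58 to -0.05, unadjusted p = 0.0261, limma adjusted p = 0.173). Neither member was thus called in either fit, where 0.184% of the tested probes were called without the block (27 probes) and 2.59% with it (380). Without the pair numbered 1, 2, 3 or 4, the blocked fit called 2, 0, 405 and 1 probes (2399 at an unadjusted limma p under 0.05 for the 0). An unadjusted p under 0.05 was reached by 21.3% of the probes in the blocked fit, and 10.6% had a blocked p at least as small as that of MATN4, 15.1% as small as that of HAS3. By size alone, 17.3% of the tested probes differed between the areas by at least as much as MATN4 and 20.8% by at least as much as HAS3.

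**Figure D3:**
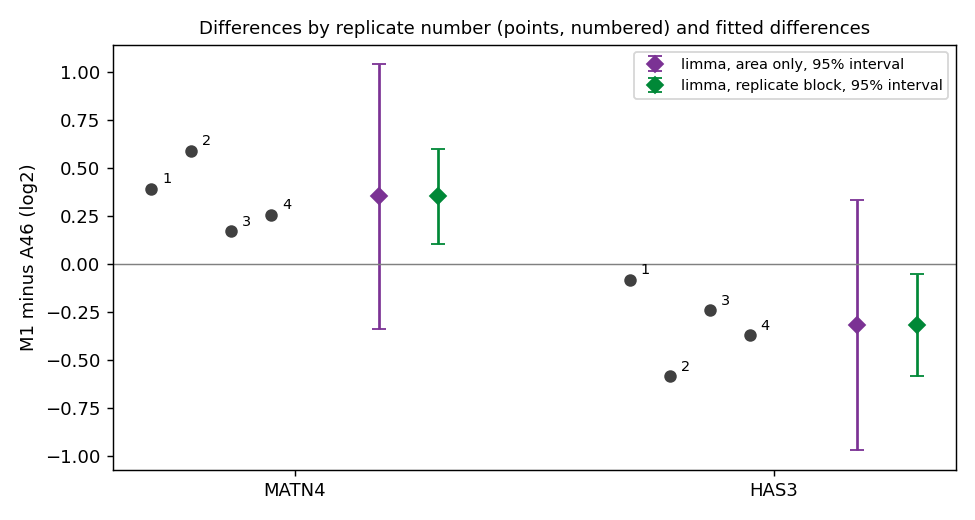
M1 minus A46 in log2 units for MATN4 (left) and HAS3 (right). Numbered points are the differences between arrays of the same number, and diamonds with bars are the fitted difference and its 95% interval without the block (purple) and with it (green). The purple intervals cross 0 and the green ones do not, but with adjustment over all probes neither gene passed (adjusted p = 0.126 and 0.173 with the block).

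The scan days were shared unequally by the areas, and the differences were therefore also taken within days. On day 1, A46 replicate 2 stood against M1 replicates 2 and 3, and the difference was 1.05 for MATN4 and -0.91 for HAS3. M1 replicate 3 had no A46 array of its number on that day, so these values mix number with area. The pair numbered 2 alone differed by 0.59 and -0.58. On day 2, where both arrays numbered 1 also shared a slide, the difference was 0.39 and -0.08. On day 3 (both arrays numbered 4) it was 0.26 and -0.37. A fixed term for scan day leaves A46 replicate 3 without weight in the comparison but keeps M1 replicate 3, so that this fit mixes number with area too. With that term MATN4 stood at 0.62 ± 0.27 SE and HAS3 at -0.50 ± 0.22 SE (limma adjusted p = 0.287 and 0.290). The 3 arrays of days 3 and 4 held MATN4 at -1.32 to -0.67 and HAS3 at -4.01 to -3.64, within the range of the other 5 arrays (-2.01 to -0.50 and -4.17 to -2.82). M1 replicates 2 and 3 were scanned on the same day and differed in MATN4 as much as any 2 arrays of M1, at -1.42 and -0.50.

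The size of both differences depended on A46 replicate 2, which held the lowest MATN4 and the highest HAS3 value of all arrays. Without it MATN4 stood at 0.15 and HAS3 at -0.06 (limma adjusted p = 0.891 and 0.946). That fit kept M1 replicate 2. Without both arrays numbered 2, the blocked fit gave 0.27 and -0.23 (limma adjusted p = 0.310 and 0.374). MATN4 stood at 0.17 without M1 replicate 3 and at 0.60 without A46 replicate 3, and HAS3 stood at -0.49 both without A46 replicate 1 and without M1 replicate 2. No array left out turned either sign.

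Within an array, MATN4 was set against HAS3, since subtracting 1 probe's log2 signal from the other's on the same array removes the scaling of the array. This log2 ratio was 0.67 higher in M1 (1.59-fold), with an SD of 0.99 among the A46 arrays and 0.65 among the M1 arrays. By number the change was 0.48, 1.18, 0.41 and 0.63. The change was of the size of the spread between arrays. It is given as a description with no test, since the pair of genes was chosen with results of these data known, and it does not show that the genes differed. Without A46 replicate 2 the change in the ratio was 0.21, and without both arrays numbered 2 it was 0.50.

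Few neighbours of these genes in matrix biology could be read. Of 224 genes in 5 lists around the perineuronal matrix, 22 were matched to a probe and 13 were tested, MATN4 and HAS3 included. No tested gene of these lists passed without the block, and EDIL3 and ANGPTL2 passed with it, both higher in M1. Over all tested probes the shares called were 0.184% and 2.59%. Over all tested probes the median difference was -0.01, with 6966 probes above 0 and 7732 below.

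For hyaluronan, 5 of 27 genes were matched, and HAS3 was the only one tested. HAS2, another hyaluronan synthase, was well above background on 2 A46 and 3 M1 arrays, and LYVE1, a hyaluronan receptor of lymphatic endothelium, on 3 and 2. HABP2, a serine protease that binds hyaluronan, and SPAM1, the sperm hyaluronidase, were not well above background on any array. Of 26 matrilins and net components, MATN4 and NPTX2 were tested. NPTX2, a secreted neuronal pentraxin that gathers AMPA receptors at synapses, had mean levels of -3.13 ± 0.58 in A46 and -3.12 ± 0.42 in M1 (SD, n = 4; difference 0.02 ± 0.31 SE, limma adjusted p = 0.995). OTX2, a homeodomain protein that nets take up, was not well above background on any array.

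The chondroitin sulphate chains that net proteoglycans carry were represented by 3 tested enzymes of 21, and none passed. ARSB, which removes sulphate groups from these chains, stood at -3.42 ± 0.29 in A46 and -2.93 ± 0.16 in M1 (difference 0.48 ± 0.17 SE, limma adjusted p = 0.383, 0.137 with the block) and was higher in M1 in 4 of 4 pairs. B3GALT6, which builds the linker between protein and chain, stood at -0.12 ± 0.19 SE, and CSGALNACT2, which adds the first N-acetylgalactosamine of a chain, at -0.08 ± 0.37 SE (differences, limma adjusted p = 0.936 and 0.977). CHST3, a chondroitin sulphotransferase, was not well above background on any array.

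Of the matrix proteases and their inhibitors, 2 of 39 were tested and neither passed. TIMP1, an inhibitor of matrix metalloproteinases, stood at 0.14 ± 0.23 SE (difference, limma adjusted p = 0.936). PLG, plasminogen, was well above background on all 4 arrays of A46, at -7.47 to -4.96, and on 1 of M1, replicate 4, at -5.03. The other 3 arrays of M1, at -8.10 to -7.75, give only an upper bound, and no difference is read from this probe. ADAMTS20 and MMP13, both matrix-cleaving metalloproteinases, were not well above background on any array.

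Other matrix proteins had 5 tested members of 111, and 2 passed with the block, where 2.59% of all tested probes did and where at most 2 probes in all passed without the pair numbered 1, 2 or 4. ANGPTL2, a secreted glycoprotein, had mean levels of -5.47 ± 0.35 in A46 and -4.54 ± 0.38 in M1 (SD, n = 4; difference 0.93 ± 0.12 blocked SE, limma adjusted p = 0.0306 with the block, 0.199 without). EDIL3, a secreted integrin ligand, stood at 2.06 ± 0.18 and 2.57 ± 0.16 (difference 0.51 ± 0.08 blocked SE, limma adjusted p = 0.0390 with the block, 0.231 without). A second, dimmer probe of EDIL3 stood at 0.24 ± 0.39 SE (limma adjusted p = 0.578 with the block). LAMB1, a laminin chain of basement membranes, stood at 0.35 ± 0.12 in A46 and -0.41 ± 0.41 in M1 without overlap (difference -0.75 ± 0.20 SE, limma adjusted p = 0.228, 0.0880 with the block). COL4A4 and COL4A6, chains of the basement membrane collagen, stood at -0.37 ± 0.23 SE and 0.02 ± 0.39 SE (differences, limma adjusted p = 0.737 and 0.995). COL4A6 was well above background on 7 of 8 arrays. The median of the 5 differences was 0.02.

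**Figure D4:**
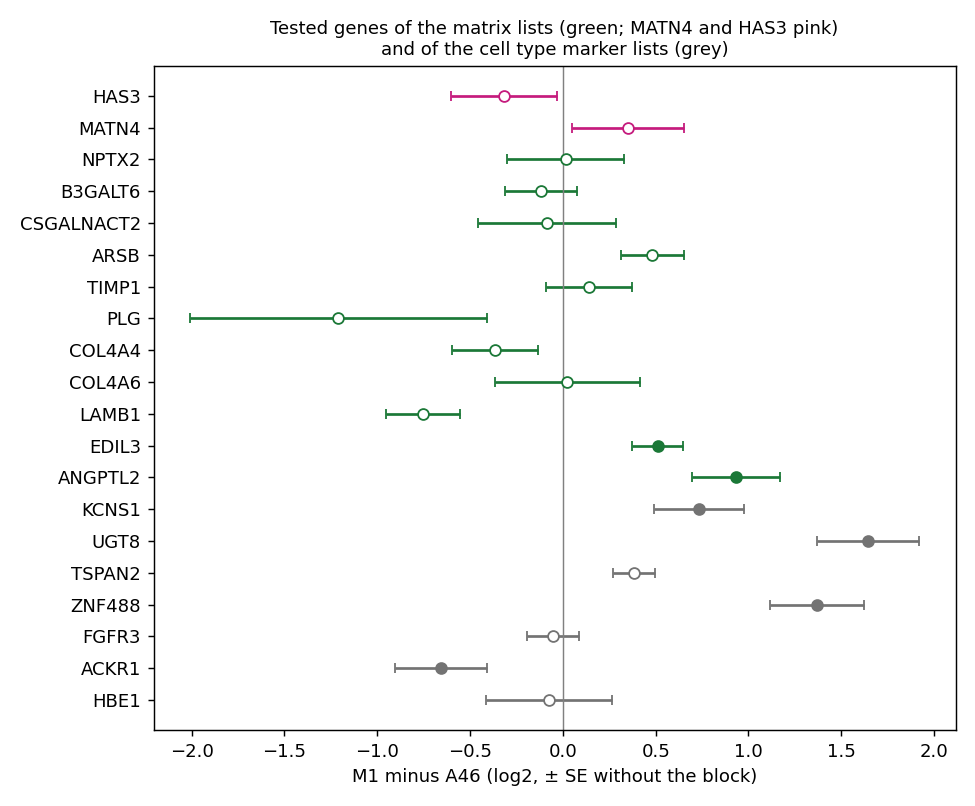
M1 minus A46 (x axis, log2 units, ± SE without the block) of the tested genes from the matrix lists (green, with MATN4 and HAS3 in pink) and from the cell type marker lists (grey). Filled points passed with the replicate block (limma adjusted p under 0.05), and open points did not. MATN4 and HAS3 are open and lie on opposite sides of 0, among matrix genes that point both ways. PLG was well above background on 1 of 4 M1 arrays, so that its point is no measured difference.

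Cell type markers were as sparse, with 7 of 96 tested over 9 lists. Of 13 markers of parvalbumin and fast-spiking neurons, KCNS1, a silent potassium channel subunit, was the only one tested. It was higher in M1 with the block (difference 0.73 ± 0.10 blocked SE, limma adjusted p = 0.0340, 0.341 without), at 2.39 to 3.29 in A46 and 3.31 to 4.14 in M1. Parvalbumin itself and the markers of excitatory neurons, of oligodendrocyte precursors, of microglia and of fibroblasts were not matched to a probe. KCNS1 alone does not measure neurons, so the neuronal content of the tissue was not checked here.

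Of 16 markers of oligodendrocytes, which make myelin, UGT8, ZNF488 and TSPAN2 were tested. Their summed level lay between -3.46 and -2.93 in A46 and between -1.995 and -0.96 in M1, without overlap. The sum is of unlogged signals and mostly follows UGT8, the brightest (mean -1.96 in M1, against -5.21 for TSPAN2 and -5.22 for ZNF488). UGT8, an enzyme of myelin lipid synthesis, differed by 1.64 ± 0.19 blocked SE and ZNF488, a transcription regulator of these cells, by 1.37 ± 0.21 blocked SE (limma adjusted p = 0.0287 and 0.0391 with the block, 0.0624 and 0.0841 without). TSPAN2, a tetraspanin of myelin, stood at 0.38 ± 0.10 blocked SE (limma adjusted p = 0.111 with the block). The single endothelial marker tested, ACKR1, was lower in M1 with the block, at 1.17 to 1.93 in A46 and 0.61 to 1.54 in M1 (limma adjusted p = 0.0473, 0.430 without). FGFR3 from the astrocyte list (-0.05 ± 0.14 SE) and HBE1 from the blood list (-0.07 ± 0.34 SE) did not pass. HBE1 was dim, with mean levels of -5.98 in A46 and -6.06 in M1, and was the only gene of its list tested. The blood content of the tissue was therefore not measured. The part of these cell types in the MATN4 and HAS3 values was not tested.

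The named genes whose levels followed those of MATN4 most closely over the 8 arrays, among 510 that were well above background on all of them, were NHLRC1, a ubiquitin ligase gene (Pearson r = 0.93), the kinase gene MAK (0.92), EFCAB11, an EF-hand protein gene (0.92), RSU1, a Ras suppressor gene (0.90), and HSPA1L of the heat shock proteins (0.87). The median r over the 510 genes was 0.05. Taken as deviations from the mean of the scan day, over the 7 arrays of days with more than 1 array, the r of these 5 genes with MATN4 was 0.93 to 0.99. Day 1 holds both the lowest and the highest MATN4 array, and the genes were picked on the same arrays. This r is therefore no separate check. MAK was the only one of them that passed with the block (difference 0.57 ± 0.31 SE, limma adjusted p = 0.0474 with the block, 0.656 without). All 5 were highest on an array numbered 3, as MATN4 was.

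For HAS3 the closest were the methyltransferase gene SETD6 (r = 0.92), EXOG, a mitochondrial nuclease gene (0.83), B3GALT6 of the chondroitin list (0.82), the anion channel gene BEST4 (0.82) and PIKFYVE, a lipid kinase gene (0.81), against a median of -0.01. Within scan days their r with HAS3 was 0.79 to 0.96. All 5 were highest on A46 replicate 2, as HAS3 was, and none passed in either fit. The arrays behind these correlations share numbers and scan days, and the genes were picked as the highest of many. The values, those within scan days included, therefore describe likeness on these arrays only.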

How the data were processed

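Total RNA of M1 and A46, 4 arrays each, was primed with oligo(dT), amplified and labelled with Cy3, per the labels' protocols. Per the file headers, Agilent Feature Extraction 10.7.3.1 made the deposited intensity of each spot by subtracting the background and detrending the array, on a linear scale. The authors' deposited series table holds log2 values of the same arrays. Set against the scanner values, differences between its columns had a slope of 1.00 and r = 1.000. Its column medians were -0.06 to 0.09, and the baseline of each probe is unknown.

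Of 41851 spots, 1417 were controls and were left out, as were 0 to 220 outlier spots per array. Both spots of a probe were averaged as log2 intensity, and the array's 75th percentile was subtracted. A probe was tested if both of its spots were well above background on the 4 arrays of either area, which held for 14698 of 20217. The test was limma 3.58.1 in R 4.3.3 with area alone in the model (6 residual degrees of freedom) and Benjamini-Hochberg adjustment at 0.05. The number of arrays limits the precision, with a median SE of 0.18 log2 units, or 0.11 with the block. The fit was also run on simulated data, in which every number had a shared effect and the probes were independent. These arrays differ from that setting, so the simulation does not show how the blocked fit performs on them. Tables were made with Python 3.11.15 and pandas 2.3.3.

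Gene names came from a table of assembly T2T-MMU8v2.0, matched on unversioned RefSeq identifiers. Of 5583 such probes 942 matched, 898 of them with a gene name, and 547 named genes were tested. The brightest tested probe stood for a gene.

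The members and lists were chosen with earlier results of these data known. Named genes are both members, every tested gene of a list with at most 10, the 5 genes most like each member by Pearson r, and every tested marker.

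Deviations from the area means correlated between same-numbered arrays (r = 0.726, 0.634, 0.169 and 0.858 in order of number), which is over the required 0.1 each time (probes are not independent replicates). The 2 arrays of number 1 shared a scan day, as did those of numbers 2 and 4. Those of number 3 were scanned on days 4 and 1. Number and scan day therefore cannot be told apart in the r values of numbers 1 and 4. On day 1, A46 replicate 2 had r = 0.634 with M1 replicate 2 and 0.259 with M1 replicate 3. Both arrays numbered 3 had a higher r with another number, A46 replicate 3 with M1 replicate 4 (0.481) and M1 replicate 3 with A46 replicate 2 (0.259). The blocked fit (3 residual degrees of freedom) therefore stands beside the plain one. Without a pairing, p-values measure only the spread between these samples, which no label ties to separate animals. Alternatives were other background correction (normexp, offset 50, on the median spot signals, since the files hold no mean spot signal), normalization, filters, array weights, an intensity trend, blocks by number and scan day, single spots and leaving out each array.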

Additional observations from a re-analysis of the deposited data

Results flagged for a closer look

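A single array stood apart from the rest of its area in 7 of the 60 sets of 4 values examined, and chance alone flags about 3 of 60. None of these sets was of MATN4 or HAS3. NPTX2 stood at -3.74 on M1 replicate 1 (others -2.94 to -2.87), PLG at -5.03 on M1 replicate 4 (others -8.10 to -7.75), UGT8 at -1.14 on M1 replicate 2 (others -2.28 to -2.13) and ACKR1 at 1.54 on M1 replicate 4 (others 0.61 to 0.69). Among the genes most like a member, HSPA1L stood at -2.75 on A46 replicate 3 (others -3.83 to -3.65) and at -2.72 on M1 replicate 3 (others -3.50 to -3.39), and EXOG stood at -3.07 on A46 replicate 2 (others -3.88 to -3.79). These are the arrays on which MATN4 and HAS3, respectively, were highest in their area, and both genes had been picked for following them.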

How the results depend on the processing

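MATN4 kept its sign in 31 of 31 alternative fits (0.15 to 0.62, limma adjusted p from 0.0995 to 0.999) and HAS3 in 31 of 31 (-0.50 to -0.06, adjusted p from 0.119 to 1.00), and neither passed in any of them. Another filter, an intensity trend or a replicate block over all 8 arrays cannot change the difference itself. In those fits the sign was fixed in advance. The lowest adjusted p of MATN4 came with the replicate block and without the pair numbered 3. Leaving out 1 array gave 0.15 to 0.60 for MATN4, -0.49 to -0.06 for HAS3 and 0.21 to 0.99 for their ratio, whose sign held in 23 of 23 alternatives. A replicate block over all 8 arrays or another scaling of whole arrays cannot change the ratio, so those alternatives repeat a value. With array weights MATN4 stood at 0.16 and HAS3 at -0.18. Over the blocked fits MATN4 ran from 0.27 to 0.41 and HAS3 from -0.40 to -0.23, and the block changed the call of neither. With normexp HAS3 stood at -0.27. The offset of 50 by itself shrinks differences of dim probes.

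The count of called probes, 27, moved more. It was 41 with normexp, 138 with array weights, 45 with an intensity trend, 15 with the first or the second spot alone, 153 and 715 with the scan day as a fixed or random block, 380 and 984 with the replicate block fixed or random, and 0 with no filter (1371 at an unadjusted limma p under 0.05). Without 1 array it was 0 to 4 (975 to 1830 at an unadjusted p under 0.05). With the replicate block it was 2, 0, 405 and 1 without the pair numbered 1, 2, 3 or 4 (2399 at an unadjusted p under 0.05 for the 0). In blocked fits chosen after the data were seen it was 487 with normexp, 386 with quantile and 409 with median normalization, 385 with the deposited values, and 0 with no filter (2955 at an unadjusted p under 0.05). Fits without an array or a pair hold fewer samples and those with no filter hold more dim probes, and the cause of the other changes was not tested. The HAS3 spots were dimmer over background than those of MATN4, while the SE of the 2 differences was alike (0.29 and 0.30).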
